A study of Mus musculus with 7 samples.

Results

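The cytosolic ribosomal protein genes are the genes whose products, together with ribosomal RNA, form the large and the small subunit of the ribosomes that translate nuclear-encoded messenger RNA. They were taken by gene symbol: Rpl or Rps with a number and no more than a short suffix (a, x, l, l1 or al), together with Rplp0, Rplp1, Rplp2 and Rpsa. That gave 85 of the 35976 gene symbols of the count table, 53 named for the large subunit and 32 for the small subunit. The symbol rule uses no measured value, although the family was picked for description with earlier results of these data known. The symbols lie on 19 chromosomes, with 14 members on chromosome 7, 8 on chromosome 17 and 4 on chromosome X. Ribosomal proteins with other names such as Fau, Rack1 and Rps3a1 are outside it and are described separately.

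The data were RNA-seq read counts per gene from male C57BL/6J mice, in which an adeno-associated virus (AAV) had been delivered to the amygdala. In 4 libraries the virus targeted the control locus Rosa (sgRosa) and in 3 it targeted Nr2f2 (sgNr2f2), a nuclear receptor transcription factor, with Cas9 under the neuron-directed Hsyn promoter in both. After more than 2 weeks of expression, mice of both groups were restrained in tubes for 7 days, fear conditioned on 1 day and put through extinction on 3 days. Cells were freed with papain and passed through a kit that enriches adult neurons by magnetic sorting. No animal age is stated, and the labels do not say whether a library holds 1 animal or several, so tests measure the spread between libraries, which may be technical. The comparison of sgNr2f2 with sgRosa bears on the role of Nr2f2 under chronic stress, and all 7 libraries come from stressed mice.

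Ribosomal proteins are made in near-equal numbers, because each mature ribosome holds about 1 copy of most of them. Many of their messenger RNAs begin with a run of pyrimidines called a 5′ terminal oligopyrimidine (TOP) tract, through which the kinase mTOR and the repressor LARP1 control their translation together. In neurons, ribosomes work in the cell body and also in dendrites and axons, where local translation takes part in plasticity. Several members have tissue-restricted copies, such as Rpl3l in heart and skeletal muscle and Rpl10l and Rpl39l in testis.

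The starts of the members that the comparison turns on are printed first, because the TOP tract is the sequence feature for which this gene family is known. Each line gives 40 bases of the transcribed strand from the RefSeq tables of GRCm38.p6, of which the last 20 begin at the annotated transcription start. Capitals mark the nearest run made of a C followed by at least 4 more C or T. The first 6 genes had all 3 sgNr2f2 libraries below all 4 sgRosa libraries, Rpl38 had one of the smallest p-values, and Rpl7a, Rps3 and Rps2 lay furthest to the higher side among genes with an established protein.
Rpl37 (chr15:5116593-5116632, plus strand): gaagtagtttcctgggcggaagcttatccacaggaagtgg
Rpl37a (chr1:72711240-72711279, plus strand): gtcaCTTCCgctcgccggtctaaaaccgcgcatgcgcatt
Rps15a (chr7:118116128-118116167, minus strand): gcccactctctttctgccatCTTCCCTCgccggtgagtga
Rps21 (chr2:180257359-180257398, plus strand): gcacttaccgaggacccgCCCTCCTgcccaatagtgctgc
Rps26 (chr10:128626487-128626526, minus strand): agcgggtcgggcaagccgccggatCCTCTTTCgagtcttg
Rps27 (chr3:90213629-90213668, minus strand): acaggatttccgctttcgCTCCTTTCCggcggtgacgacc
Rpl38 (chr11:114668560-114668599, plus strand): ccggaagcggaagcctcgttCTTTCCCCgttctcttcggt
Rpl7a (chr2:26910787-26910826, plus strand): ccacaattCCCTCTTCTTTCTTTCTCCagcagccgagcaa
Rps3 (chr7:99483690-99483729, minus strand): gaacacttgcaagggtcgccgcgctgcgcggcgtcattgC
Rps2 (chr17:24720043-24720082, plus strand): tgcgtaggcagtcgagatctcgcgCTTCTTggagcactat

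In Rps15a, Rps21, Rps27 and Rpl38 such a run covered the annotated start shown. Another annotated start of Rps21 (chr2:180257429-180257468, not shown) had no run in its window. A run of 19 bases in Rpl7a also covered the start shown, although its first transcribed base is a T. In Rps26 and Rps2 the run began 4 bases after the start, and in Rpl37a it began 16 bases before it. In Rps3 the run started at the last base shown and went on beyond it, and in Rpl37 none lay within 20 bases. Over the 64 members found in the promoter table, 14 of 76 annotated starts (18.4%) had a C at the first transcribed base followed by at least 4 pyrimidines, against 2.51% of 32851 starts of all genes. Of these 14 starts, 8 belonged to large subunit genes (48 starts) and 6 to small subunit genes (28 starts). A run starting or lying within 20 bases of the start, searched on the transcribed strand, was found at 57 of the 76 member starts (75%) and at 48.2% of all starts. Runs occurred among the genes that lay lower in sgNr2f2 and among those that lay higher. An annotated start can be off by some bases, so a missing match says only that these letters are not in the window.

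The libraries held 6266897 to 20928677 counts, and the neuron label was only weakly visible in them. The 12 neuron markers took 0.039 to 0.184% of counts and the 11 oligodendrocyte markers 2.69 to 32.2%. sgRosa replicate 4 stood apart: it had the lowest total, 2.69% oligodendrocyte marker counts against 13.6 to 32.2% elsewhere, and 3.7% erythroid marker counts (all 6 markers) against 0.0958 to 0.318%. It also had the highest neuron marker share, 0.184% against 0.039 to 0.122% elsewhere, but single neuron markers went both ways. In CPM (each library's counts brought to the same total, with TMM factors), Syt1 was highest there, at 557.6 against 73.9 to 233.1 elsewhere. Snap25 was lowest there, at 36.9 against 127.7 to 205.7 CPM, and so was Gad1, at 4.5 against 10.1 to 18.3 CPM. Nr2f2, the targeted gene, lay at 19.8, 16.5, 11.3 and 13.1 CPM in sgRosa libraries 1 to 4. It lay at 11.9, 12 and 11.6 CPM in sgNr2f2 libraries 1 to 3, within the sgRosa range (log2 fold change -0.36, SE 0.37), and a gene's count does not tell whether its DNA was cut. In bulk RNA, fewer cells of a type and less RNA per cell cannot be told apart. Results that rest on sgRosa replicate 4 are therefore given with and without it.

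The ribosomal protein genes together took 0.71 to 1.55% of the counts of a library. The share was 0.872, 1.1, 0.997 and 1.55% of counts in sgRosa libraries 1 to 4 and 0.795, 0.71 and 0.899% in sgNr2f2 libraries 1 to 3. The groups overlapped through sgRosa replicate 1, which lay below the highest sgNr2f2 library, while the other 3 sgRosa libraries lay above all sgNr2f2 libraries. The means were 1.13 ± 0.297% (SD, n = 4) and 0.801 ± 0.095% (SD, n = 3), and without sgRosa replicate 4 the sgRosa mean was 0.99%. Mitochondrial transcripts and Mbp took between them a large and variable part of the counts, with Mbp at 1.47% in sgRosa replicate 4 and 10.3 to 25.8% in the others. With these left out of the total, the ribosomal share was 1.56 ± 0.252% (SD, n = 4) and 1.19 ± 0.22% (SD, n = 3), and the groups still overlapped.

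Large subunit genes took more counts than small subunit genes in every library. That ratio stood at 1.44, 1.39, 1.4 and 2.48 in sgRosa libraries 1 to 4 and 1.58, 1.46 and 1.43 in sgNr2f2 libraries 1 to 3. It was alike in 6 libraries, and sgRosa replicate 4 alone was far above. The sgRosa mean was 1.68 with that library and 1.41 without it, beside 1.49 in sgNr2f2, so the order of the means turned. A different summary, the median log2 CPM of large subunit genes minus that of small subunit genes, was -0.16, -0.23, -0.27 and -0.19 in sgRosa. In sgNr2f2 it was -0.40, -0.41 and -0.54, so all 3 libraries lay below all 4 sgRosa libraries. This difference in medians describes the middle gene of each subunit and not the sum of counts. Each gene's log2 CPM was also taken as the difference from its own mean over all libraries. On that scale sgNr2f2 minus sgRosa, from group means of library medians, was -0.32 for large and -0.3 for small subunit genes. The groups overlapped for both subunits, so the separation above was not seen as a larger shift of large subunit genes on this scale. The groups were not compared by a test on any of these summaries, since the genes were chosen with earlier results of these data known.

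Messenger RNA levels differed widely between genes of the same particle. Of the 85 members, 82 passed the low-count filter of the test, all 32 of the small subunit and 50 of the large. The median member had a mean of 75.1 CPM over the 7 libraries, above 89.0% of the 14412 genes tested, and 64 members were at 20 CPM or more in every library. Per kilobase of transcript, on the scale used to compare genes, the 80 members with an annotated coding transcript ran from 14 CPM per kb (Rpl39) to 803.3 CPM per kb (Rps14), a 57.4-fold range. The medians of the large and small subunits were 114.0 and 94.2 CPM per kb.

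The highest levels per length in the small subunit belonged to Rps14, a platform protein beside the decoding site, at 803.3 CPM per kb, then Rps27 at 364.7 and Rps19 at 315.9. In the large subunit they belonged to Rpl13a at 552.0, Rpl4, which lines the tunnel for the growing protein, at 515.3, Rpl32 at 495.3 and Rpl13 at 389.7 CPM per kb. Without sgRosa replicate 4 the order in the large subunit changed to Rpl32 at 509.2, Rpl13a at 483.5, Rpl4 at 399.0 and Rpl13 at 381.1 CPM per kb. In the small subunit Rps14 (742.7) and Rps27 (380.7) stayed first, and Rps9 (320.3) and Rps6 (317.2), named after values were seen, passed Rps19 (312.5). Rps14 alone had 269.1, 543.8, 551.0 and 696.5 CPM in sgRosa libraries 1 to 4 and 461.2, 328.5 and 506.8 CPM in sgNr2f2 libraries 1 to 3. Its groups overlapped widely (log2 fold change -0.25, SE 0.50, or -0.07 without sgRosa replicate 4), and so did those of Rpl32 (-0.22, SE 0.48) and Rps19 (-0.37, SE 0.45). Rpl13a (-0.30, SE 0.56) and Rpl4 (-0.46, SE 0.62) turned to 0.02 and 0.18 without sgRosa replicate 4, the library in which Rpl4 was at 1865.6 CPM against 409.3 to 775.5 CPM in the other 6 libraries. Rpl13 lay at 0.04 (SE 0.48) and turned to -0.19 with scaling to library totals. Of the members named here for their level, only Rps27 had groups that did not overlap.

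**Figure D1:**
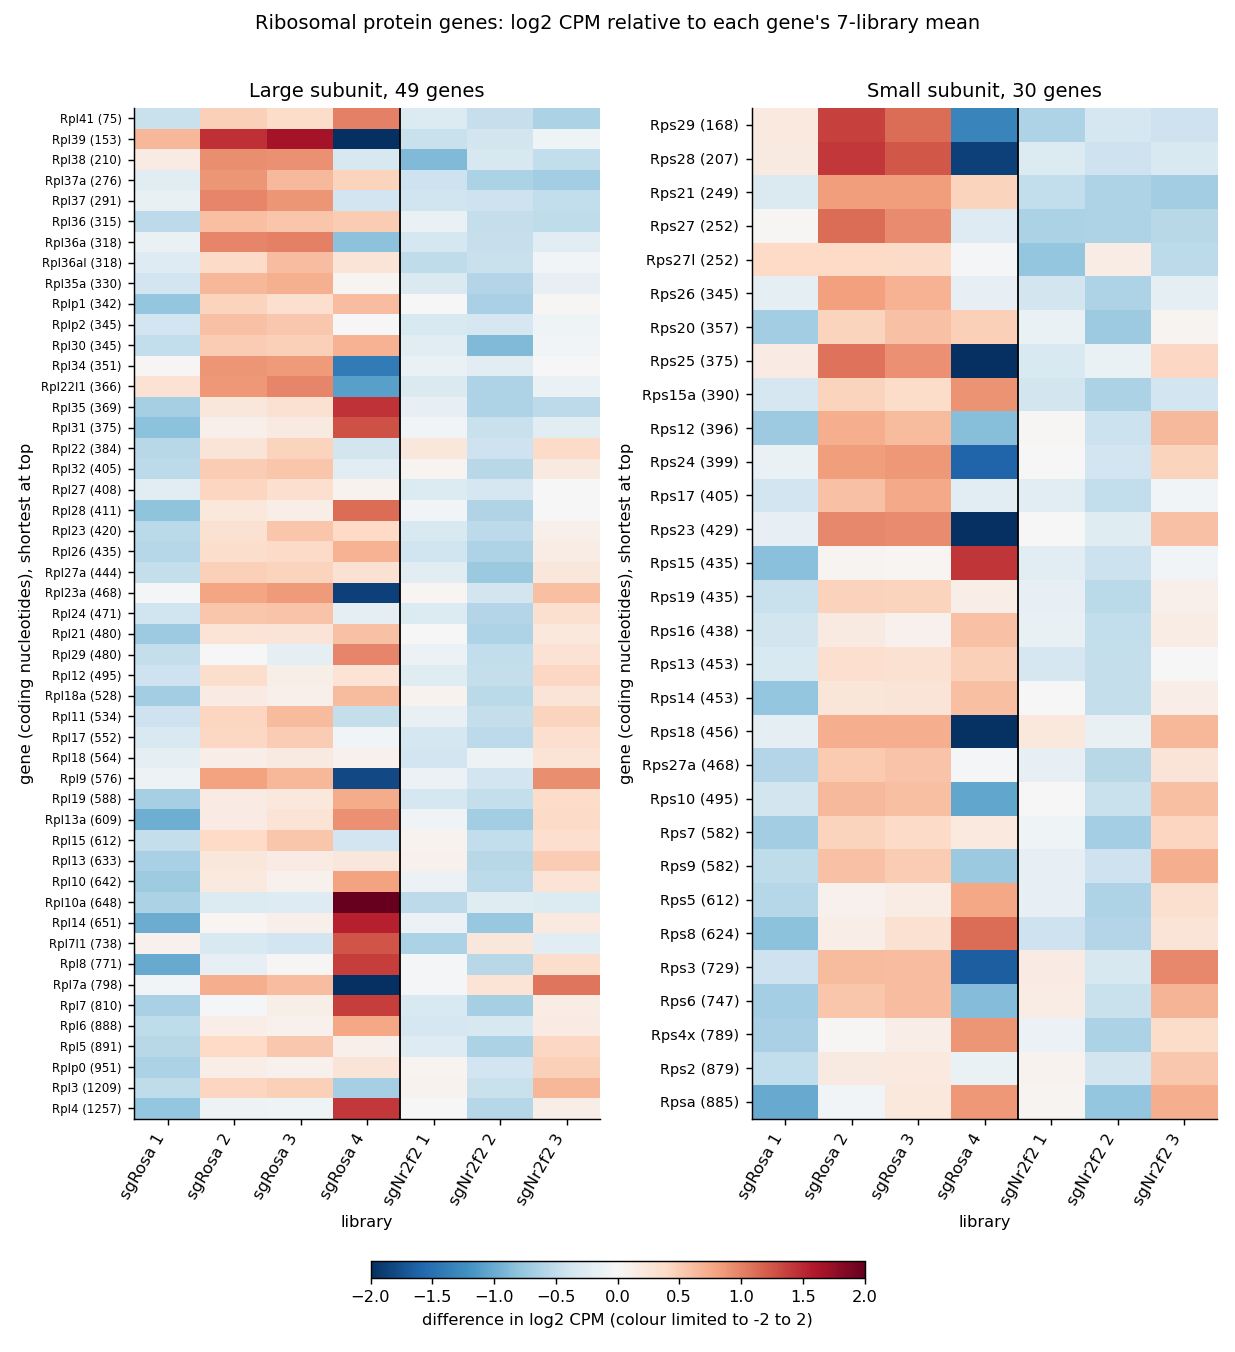
Difference of each gene's log2 CPM from its own mean over the 7 libraries (colour, limited to -2 to 2), with libraries in columns and 79 genes in rows ordered from the shortest to the longest coding sequence, for the large (left) and small subunit (right). sgRosa replicates 2 and 3 are mostly above the mean, sgRosa replicate 1 and sgNr2f2 replicate 2 mostly below, sgRosa replicate 4 is mixed, and most of the shortest genes are below the mean in all 3 sgNr2f2 libraries.

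In the comparison of sgNr2f2 with sgRosa, no ribosomal protein gene passed edgeR's quasi-likelihood test (0 higher and 0 lower of 82). None of the 14412 genes passed either (0.0%), and the smallest adjusted p of a member was 0.868. At an unadjusted p under 0.05, edgeR had 4 members lower and 0 higher, where 2.82% of all genes were lower and 2.18% higher. DESeq2 passed 0 members (0.0499% of all genes passed, in either direction) and placed 6 lower at an unadjusted p under 0.05, beside 4.74% of all genes. For limma-voom with quality weights these counts were 0 and 22, beside 7.39% of all genes placed lower.

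On the side of the fold change alone, 69 of the 82 members lay below 0 in sgNr2f2 and 13 above, with a median log2 fold change of -0.36. Over all genes tested, 56.2% lay below 0 and the median was -0.11. Over the 2424 genes with a mean of at least 50 CPM, a level closer to that of the members, 40.4% lay below 0 and the median was 0.14. Large subunit genes had a median of -0.39 with 43 of 50 below 0, and small subunit genes -0.31 with 26 of 32 below 0. Scaling to library totals moved the median of all genes to -0.33 and put 79 members below 0 and 3 above. Without sgRosa replicate 4 the member median was -0.25, with 65 below 0 and 17 above, beside -0.03 over all genes. Members share libraries and are not replicates, so these counts describe the family and are not a test of it.

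All 3 sgNr2f2 libraries lay below all 4 sgRosa libraries for 6 members (7.32% of 82), beside 3.9% of all genes. They were Rpl37, Rpl37a, Rps15a, Rps21, Rps26 and Rps27. No member had sgNr2f2 above, beside 4.41% of all genes. Without sgRosa replicate 4 the groups separated for 14 members, again all with sgNr2f2 lower. Over all 14412 genes, 1298 (9.01%) then separated with sgNr2f2 lower and 1296 with sgNr2f2 higher. At an unadjusted p under 0.05, edgeR without that library had 16 members lower, beside 4.88% of all genes. This count was 8 without sgRosa replicate 1, beside 2.39% of all genes in the same fit. It was 0 without sgRosa replicate 2, without sgRosa replicate 3 and without any 1 sgNr2f2 library, beside 2.25 to 3.49% of all genes in those fits.

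Among the large subunit genes, Rpl37a had the smallest p. This zinc-binding protein's gene lay at 54.4, 117.3, 100.5 and 86.5 CPM in sgRosa libraries 1 to 4 and at 47.7, 41.3 and 39.6 CPM in sgNr2f2 libraries 1 to 3. The groups did not overlap, with sgRosa replicate 1 nearest to sgNr2f2. The log2 fold change was -1.06 (SE 0.42), with an edgeR adjusted p of 0.868. Rpl38, known in mice for the translation of Hox messages in axial patterning, lay at 26.9, 45.9, 45.7 and 19.2 CPM in sgRosa and at 13.0, 19.3 and 17 CPM in sgNr2f2. Here sgRosa replicate 4 lay just inside the sgNr2f2 range, and the log2 fold change was -1.07 (SE 0.44, edgeR adjusted p 0.868).

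Rpl37, another zinc-binding member, lay at 65.6, 143.5, 135.2 and 55.5 CPM in sgRosa and at 55.1, 54.6 and 51.3 CPM in sgNr2f2. The groups were separated by less than 1 CPM, between sgRosa replicate 4 and sgNr2f2 replicate 1, and the log2 fold change was -0.90 (SE 0.47). Rpl41, which encodes the shortest ribosomal protein, lay at 53.1, 101.0, 93.1 and 145.1 CPM in sgRosa and at 59.8, 52.6 and 46.6 CPM in sgNr2f2. Only sgRosa replicate 1 was within the sgNr2f2 range, and the log2 fold change was -0.89 (SE 0.45), or -0.64 without sgRosa replicate 4. Rpl35 (-0.96, SE 0.55) and Rpl36 (-0.72, SE 0.42) overlapped. Rpl35 lay at -0.45 without sgRosa replicate 4, where it had 382.7 CPM against 87.6 to 173.0 CPM in the other libraries.

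Among the small subunit genes, Rps21 had the smallest p. It lay at 31.0, 68.1, 68.0 and 51.6 CPM in sgRosa libraries 1 to 4 and at 26.8, 24.8 and 23.5 CPM in sgNr2f2 libraries 1 to 3. The 3 sgNr2f2 libraries were close together and below all sgRosa libraries, with a log2 fold change of -1.13 (SE 0.41, edgeR adjusted p 0.868). Rps27, a zinc-finger protein of the small subunit, lay at 112.7, 241.3, 214.3 and 92.7 CPM in sgRosa and at 71.2, 72.3 and 76.2 CPM in sgNr2f2. The groups were again apart, with sgRosa replicates 1 and 4 nearest, and the log2 fold change was -1.17 (SE 0.48, edgeR adjusted p 0.868).

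Rps29, also a zinc-binding protein, lay at 30.4, 68.9, 58.4 and 10.6 CPM in sgRosa and at 17.5, 21.2 and 20 CPM in sgNr2f2. sgRosa replicate 4 was the lowest of all 7 libraries, and the log2 fold change was -1.10 (SE 0.58), or -1.42 without it. Rps15a (-0.86, SE 0.42) and Rps26, which lies at the exit of the messenger RNA channel (-0.75, SE 0.43), had groups that did not overlap. Rps26 lay at 48.8, 98.2, 90.1 and 49.2 CPM in sgRosa and at 43.2, 36.2 and 48.3 CPM in sgNr2f2, with sgRosa replicate 1 and sgNr2f2 replicate 3 almost equal.

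The members furthest to the higher side had large errors. Rpl7a lay at 34.2, 58.6, 54.5 and 5.72 CPM in sgRosa and at 35.1, 43.1 and 74.9 CPM in sgNr2f2 (log2 fold change 0.41, SE 0.66). Its low level in sgRosa replicate 4 carried the difference, which was 0.06 without that library. Rps3, a protein of the messenger RNA entry channel, lay at 348.7, 721.5, 708.9 and 147.3 CPM in sgRosa and at 517.9, 370.8 and 902.0 CPM in sgNr2f2. Its groups overlapped, and its log2 fold change of 0.31 (SE 0.63) was 0.01 without sgRosa replicate 4. Rps2, its neighbour at the entry channel, lay at 0.17 (SE 0.43) and turned to -0.05 with scaling to library totals. Rpl32l, a symbol with no coding transcript in the annotation used, stayed below 1 CPM in every library and had a log2 fold change of 0.62 (SE 0.98).

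The stalk proteins Rplp0, Rplp1 and Rplp2, which recruit elongation factors to the large subunit, lay on different sides of 0. Rplp1 lay at 92.5, 216.5, 199.8 and 243.7 CPM in sgRosa and at 159.4, 101.1 and 162.3 CPM in sgNr2f2 (log2 fold change -0.42, SE 0.48). Rplp2 lay at -0.49 (SE 0.40). Rplp0, the base of the stalk, lay at 161.5, 275.6, 263.9 and 298.6 CPM in sgRosa and at 260.9, 191.0 and 347.0 CPM in sgNr2f2, with a log2 fold change of 0.09 (SE 0.46) that turned to -0.14 with scaling to library totals. The groups overlapped in all 3 genes.

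Members that exist as a main gene and a copy with a similar protein were compared by the copy's share of the pair's counts. Rpl22l1, whose level Rpl22 is known to repress in mice, took 37.0, 33.3, 32.1 and 16.5% of the pair in sgRosa libraries 1 to 4 and 18.5, 22.2 and 18.6% in sgNr2f2 libraries 1 to 3. In 3 sgRosa libraries the share was above all sgNr2f2 libraries, and in sgRosa replicate 4 it was the lowest of all. Rpl22l1 itself lay at -0.79 (SE 0.50), or -1.07 without sgRosa replicate 4, and Rpl22 at 0.10 (SE 0.42), turning to -0.09 with scaling to library totals. Rps27l, known in human cells as a p53-induced relative of Rps27, took 18.5, 9.56, 10.6 and 17.1% of the pair in sgRosa and 13.6, 22.8 and 14.9% in sgNr2f2. Its own level was 25.6, 25.5, 25.4 and 19.1 CPM in sgRosa and 11.2, 21.4 and 13.3 CPM in sgNr2f2 (log2 fold change -0.64, SE 0.39), with sgNr2f2 replicate 2 inside the sgRosa range.

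The other pairs overlapped between the groups as well. Rpl36al took 14.7 to 35.2% of its pair with Rpl36a in sgRosa and 18.7 to 22.4% in sgNr2f2. Rpl7l1, a homologue of Rpl7 that works in ribosome assembly, took 15.3 to 29.8% in sgRosa and 16.4 to 32.2% in sgNr2f2, with its highest shares in sgRosa replicate 1 and sgNr2f2 replicate 2. Rps4l, which RefSeq lists as a transcribed pseudogene, took 8.02 to 16.6% of its pair with the X-linked Rps4x in sgRosa and 7.23 to 21.1% in sgNr2f2. The log2 fold changes were -0.61 (SE 0.40) for Rpl36al, -0.78 (SE 0.50) for Rpl36a, -0.50 (SE 0.50) for Rpl7l1 and -0.65 (SE 0.56) for Rpl7. Those of the other genes were -0.58 (SE 0.55) for Rps4l, -0.27 (SE 0.49) for Rps4x, -0.28 (SE 0.47) for Rpl10 and 0.14 (SE 0.51) for Rpl3, which turned to -0.05 with scaling to library totals. Several of these rested on sgRosa replicate 4. Rpl7 had 410.1 CPM there against 98.2 to 173.1 CPM elsewhere and lay at -0.09 without it. Rpl7l1 then lay at 0.01, Rps4l at 0.05, Rps4x at 0.06 and Rpl3 at -0.03, while Rpl36a lay at -1.03 and Rpl36al at -0.62.

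The tissue-restricted copies were at or near the lower limit of detection. Rpl10l had 0 counts in all 7 libraries, which allows up to 3 counts in a library. Rpl39l had 1 count, in sgRosa replicate 1. In sgRosa libraries 1 to 4 the counts of Rpl3l were 1, 7, 0 and 15, with 0 in each sgNr2f2 library, and the highest came from the library of lowest depth. None of these genes was tested, and floors cover counting error only, because no molecular identifiers are stated.

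How reads from near-identical copies were assigned is not given in the sources used here, so values of members with retrocopies are uncertain. Rps27rt, an annotated copy of Rps27 named after values were seen, held 3.30 to 4.24% as many counts as Rps27 in each library. Rpl37rt, also named after values were seen, held 5.66 to 8.58% as many counts as Rpl37. Of 12 annotated pseudogene symbols of the family, 4 passed the low-count filter. Of these, Rps15a-ps6 lay at -0.55 (SE 0.74), Rpl14-ps1 at -0.41 (SE 0.58) and Rpl34-ps1 at -0.39 (SE 0.87). They lay at 0.14, 0.26 and -0.75 without sgRosa replicate 4.

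Fold changes differed between classes of coding length. The length classes used here were chosen after the values were seen, so they carry no test. The 10 members with under 300 coding nucleotides had a median log2 fold change of -1.07 and lay below 0 in 10 of 10 cases. The 29 members with 300 to 449 nucleotides had a median of -0.51, the 19 with 450 to 599 had -0.17 and the 22 with 600 or more had -0.28. With all 7 libraries the groups separated with sgNr2f2 below in 4 of the 10 shortest members, beside 3.9% of all genes. Without sgRosa replicate 4 the 4 medians were -1.21, -0.45, -0.17 and 0.02. The groups then separated in 9 of the 10 shortest members, beside 9.01% of all genes. The exception was Rpl41.

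The class under 300 nucleotides had the lowest median in both subunits. In the large subunit the medians from the shortest to the longest class were -1.06, -0.53, -0.17 and -0.30, and without sgRosa replicate 4 they were -1.10, -0.43, -0.10 and 0.02. In the small subunit they were -1.10, -0.40, -0.16 and -0.01, and without sgRosa replicate 4 -1.37, -0.50, -0.19 and 0.01. The shortest class was also the lowest among other genes. The 240 other genes with under 300 coding nucleotides had a median of -0.49, and 183 of them lay below 0, while the 11277 with 600 or more had a median of -0.05. Without sgRosa replicate 4 these medians were -0.25 and -0.01, and the groups separated with sgNr2f2 below in 20.8% of the short genes and 8.21% of the long ones. With all 7 libraries these shares were 9.17% and 3.32%.

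**Figure D2:**
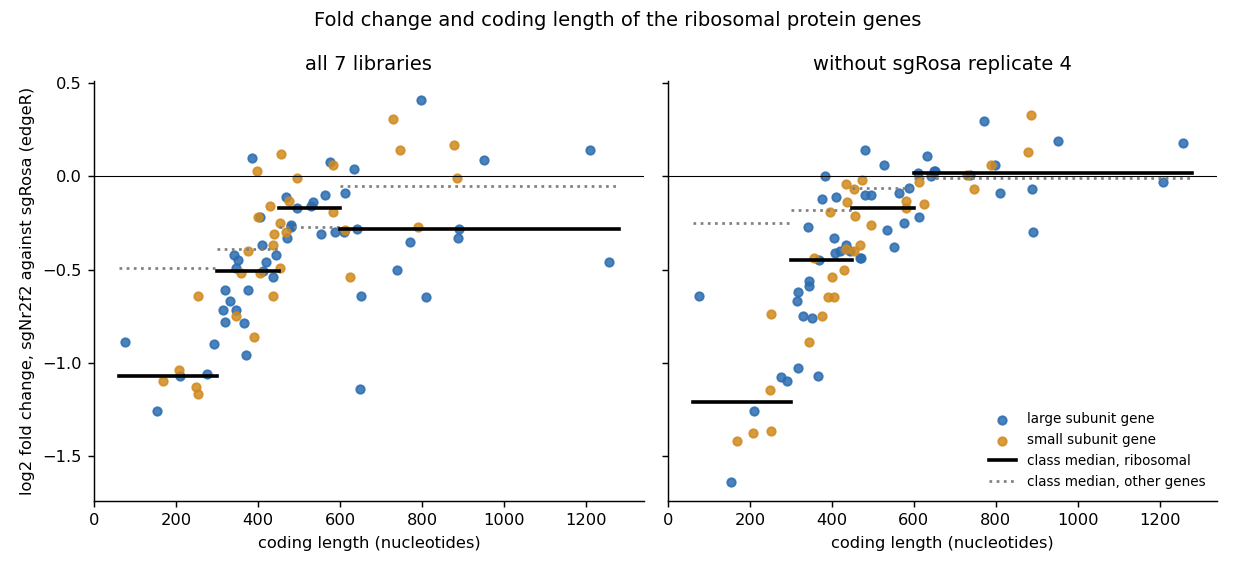
Log2 fold change of sgNr2f2 against sgRosa (edgeR, y axis) against coding length in nucleotides (x axis) for 80 ribosomal protein genes, with all 7 libraries (left) and without sgRosa replicate 4 (right). Solid bars are medians of the ribosomal genes in the 4 length classes, -1.07 to -0.17 on the left, and dotted bars those of other genes. The class under 300 nucleotides has the lowest median in both panels, and single longer genes such as Rpl10a (-1.14 on the left) lie as low.

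The shortest members include Rpl39, whose protein lies at the exit tunnel, and Rps28, which lies near the exit of the messenger RNA channel and was named after its values were seen. Rpl39 lay at 9.42, 16.4, 19.0 and 0.681 CPM in sgRosa and at 4.30, 4.54 and 5.51 CPM in sgNr2f2. Rps28 lay at 10.5, 24.9, 21.9 and 2.45 CPM in sgRosa and at 7.63, 6.84 and 7.45 CPM in sgNr2f2. In both genes sgRosa replicate 4 was the lowest of the 7 libraries and the other 3 sgRosa libraries were the highest. Their log2 fold changes were -1.26 (SE 0.80) and -1.04 (SE 0.66), and without sgRosa replicate 4 they were -1.64 and -1.38.

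Within a library, the balance of short and long members does not depend on scaling between libraries. Per 100 counts of members with 600 or more coding nucleotides, members with under 300 reached 15.2, 16.7, 14.8 and 6.48 in sgRosa libraries 1 to 4. They reached 7.12, 10.3 and 4.94 in sgNr2f2 libraries 1 to 3. The 3 sgRosa libraries 1 to 3 lay above all sgNr2f2 libraries, and sgRosa replicate 4 lay among them. The means were 13.3 ± 4.62 (SD, n = 4) and 7.45 ± 2.69 (SD, n = 3), and 15.6 in sgRosa without replicate 4. RNA integrity and fragment sizes are not given in the labels, and their part in this balance was not tested.

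**Figure D3:**
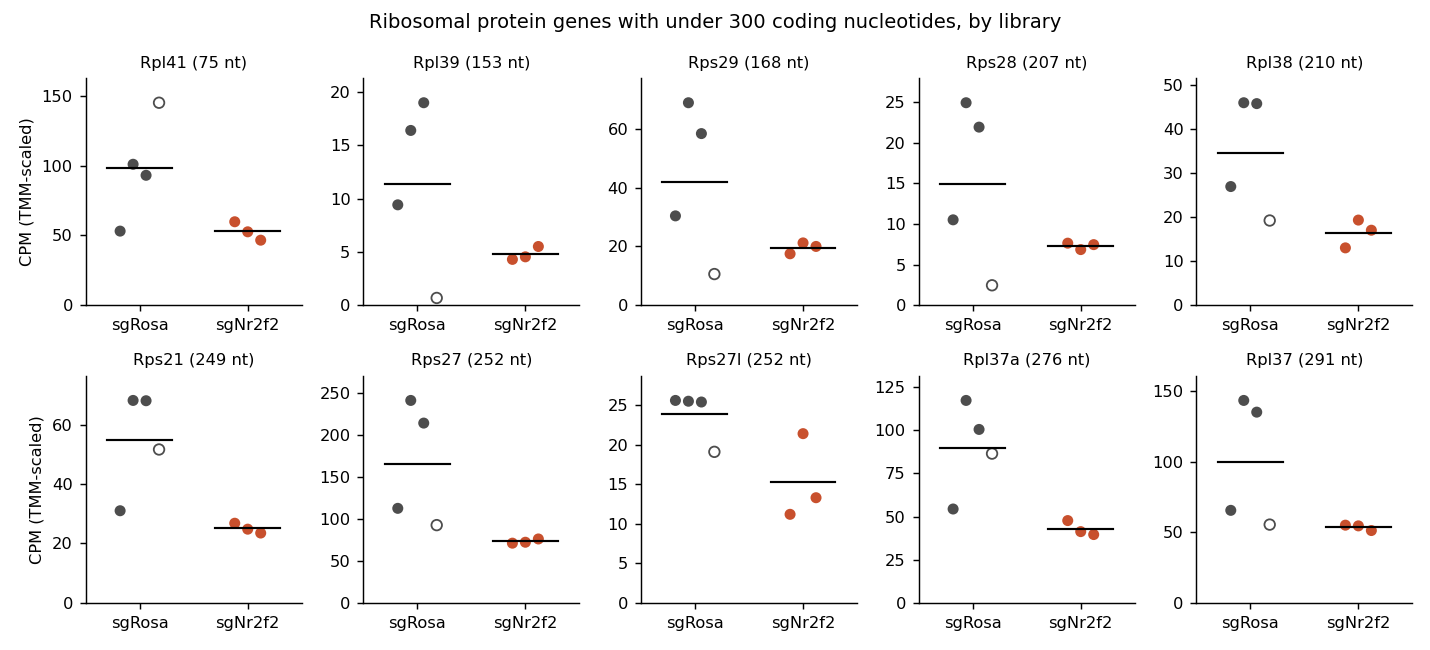
CPM on TMM-scaled library sizes (y axis, from 0) of the 10 ribosomal protein genes with under 300 coding nucleotides, in 4 sgRosa and 3 sgNr2f2 libraries (points, in replicate order within a group), with group means as bars. The open circle is sgRosa replicate 4, which is the lowest library for Rpl39, Rps29 and Rps28 and the highest for Rpl41. The other 3 sgRosa libraries are above all sgNr2f2 libraries in 9 of the 10 genes.

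Libraries of the same group differed from each other across the family. The median member lay 0.43 and 0.44 above its own 7-library mean in log2 CPM in sgRosa replicates 2 and 3, and at -0.46 and -0.48 in sgRosa replicate 1 and sgNr2f2 replicate 2. The group means of these medians were 0.16 in sgRosa and -0.16 in sgNr2f2. Compared with the mean of the other 3 sgRosa libraries, sgRosa replicate 1 had 26 of 82 members more than 2-fold lower and 0 more than 2-fold higher. sgRosa replicate 1 and sgNr2f2 replicate 2 were the lowest library for 28 and 22 members. The same pair had the highest endothelial marker shares of the 7 (0.91 and 0.74% of counts, over 6 markers, against 0.259 to 0.492%). They also had lower oligodendrocyte marker shares (13.6 and 17.9%) than the 4 libraries at 29.0 to 32.2%, and the part of either in the ribosomal levels was not tested.

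sgRosa replicate 4 differed from the others in spread more than in level. The interquartile range of the members' deviations from their means was 1.22 in log2 CPM in this library and 0.23 to 0.52 in the other 6. Over all genes tested it was 2.19 and 0.65 to 0.93, so members were spread less than other genes in every library. Against the other 3 sgRosa libraries, 16 members were more than 2-fold higher in it and 18 more than 2-fold lower, from -4.17 in Rpl39 to 2.61 in Rpl10a. The next genes were named after values were seen. Rpl10a had 80.4 CPM in it against 11 to 14.4 CPM in the other 6 libraries, and Rpl14 had 927.2 CPM against 158.1 to 362.8 CPM. Rps18, in contrast, had 17.9 CPM against 62.1 to 117.5 CPM, and Rps23 had 17.3 CPM against 63.0 to 143.8 CPM.

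Within the family, values in sgRosa replicate 4 differed with coding length and with G and C content. Members with 600 or more coding nucleotides had a median deviation of 0.79 there and those with under 300 had -0.29. Other genes ran the other way, with 0.44 under 300 nucleotides and -0.18 at 600 or more. Members with 55% or more G and C in the transcript had a median deviation of 0.56, those with 50 to 55% had 0.27, and those with 45 to 50% had -0.11. The 4 members under 45% had 0.04. Over all other genes the medians ran from -0.95 under 45% to 0.79 at 55% or more. The median log2 fold changes of members without this library, from the lowest to the highest G and C class, were -0.59, -0.47, -0.13 and -0.18. Those of other genes were -0.29, -0.10, 0.06 and 0.26 in the same order. The part of G and C content and of length in this library's values was not tested.

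**Figure D4:**
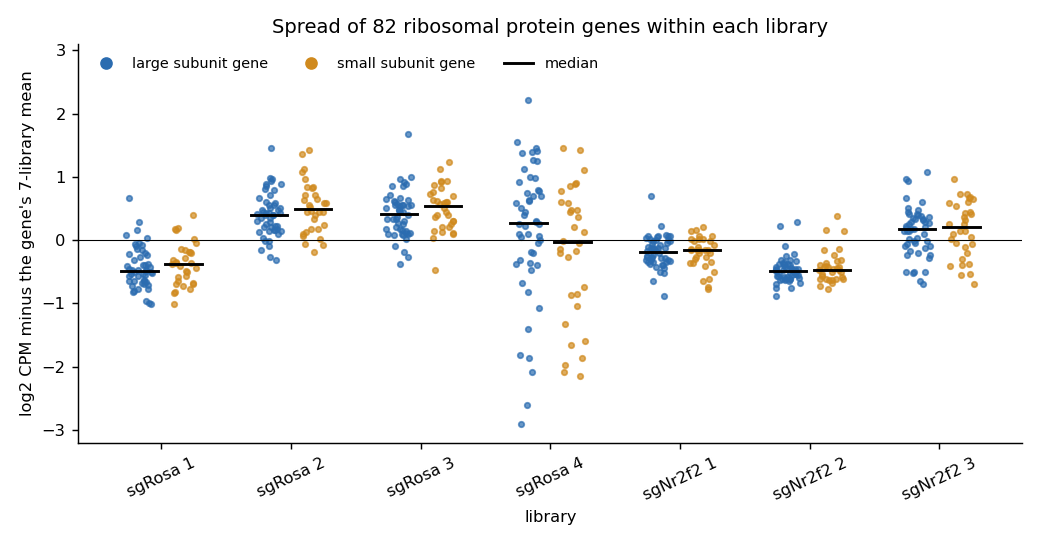
Each point is a ribosomal protein gene (82 in each library, large and small subunit side by side), placed by its log2 CPM minus its own 7-library mean (y axis), and bars are medians. The interquartile range over both subunits is 1.22 in sgRosa replicate 4 and at most 0.52 in the other libraries.

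Leaving out sgRosa replicate 4 changed the call for 6 members in one tool. DESeq2 without that library passed Rpl22l1, Rpl38, Rpl39, Rps27, Rps28 and Rps29, each lower in sgNr2f2, where 0.824% of all genes passed as lower. It passed 0 members as higher, where 1.82% of all genes passed as higher, and 16 members were lower at an unadjusted p under 0.05, beside 5.3% of all genes. On the same 6 libraries edgeR passed 0 members, with a smallest adjusted p of 0.235, and limma-voom passed 0, with 0.0967. This choice of libraries and tool was made after the data were seen. Of the 6 genes, 5 have under 300 coding nucleotides and Rpl22l1 has 366.

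Ribosomal proteins outside the symbol rule lay on both sides of 0. Fau, which encodes a ubiquitin-like protein fused to a small subunit protein, lay at -0.73 (SE 0.51), or -0.30 without sgRosa replicate 4. Rack1, a signalling scaffold on the small subunit, lay at -0.30 (SE 0.52) and turned to 0.29 without sgRosa replicate 4, in which it had 158.9 CPM against 45.6 to 73.7 CPM elsewhere. Rps3a1 lay at 0.07 (SE 0.51) and turned to -0.12 with scaling to library totals.

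Other genes of translation gave a scale for the family. The 77 genes of the mitochondrial ribosome, a separate particle, had a median of -0.50 with 67 below 0, and 0 passed at an unadjusted p under 0.05 in edgeR (0 in the adjusted test). Their median was -0.14 without sgRosa replicate 4, beside -0.25 for the cytosolic members. All 3 sgNr2f2 libraries lay below all 4 sgRosa libraries for 6 of them (7.79%), beside 7.32% of the cytosolic members and 3.9% of all genes. Without sgRosa replicate 4, 11 separated with sgNr2f2 below and 4 above, beside 14 and 0 of the cytosolic members. In that setting 1298 of the 14412 genes tested (9.01%) separated with sgNr2f2 below and 1296 with sgNr2f2 above. The most separated by p were Mrpl32 (-0.82, SE 0.38), Mrpl49 (-1.03, SE 0.48) and Mrps35 (-1.10, SE 0.52). These values were -0.70, -0.76 and -0.69 without sgRosa replicate 4. The 16 other genes known for TOP messages had a median of -0.09 with 8 below 0 and 8 above, or 0.08 without that library. Naca and Btf3, which together shield newly made proteins, lay at -0.81 (SE 0.60) and -0.40 (SE 0.41), and the initiation factor Eif4b at 0.57 (SE 0.58). The 3 genes lay at -0.15, -0.09 and 0.28 without sgRosa replicate 4.

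The 25 initiation factors had a median of -0.07, with 14 below 0, and a median of 0.06 without sgRosa replicate 4. The 3 with the smallest p lay higher. Eif4g1, the scaffold of cap-dependent initiation, had 75, 79.1, 78.1 and 64.7 CPM in sgRosa and 114.0, 167.9 and 111.8 CPM in sgNr2f2. All sgNr2f2 libraries were above all sgRosa libraries (log2 fold change 0.82, SE 0.39, edgeR adjusted p 0.868). Eif3b (0.81, SE 0.40) and Eif4h (0.90, SE 0.55) also had sgNr2f2 above in every library, and Eif4h lay at 0.59 without sgRosa replicate 4. Among 39 ribosome assembly genes the median was -0.07 (0.02 without sgRosa replicate 4), with 22 below 0. Beside 2.82% of all genes, 2 of the 39 were lower at an unadjusted p under 0.05 in edgeR. These were Rrp12 (-1.31, SE 0.53), which acts in export of subunits from the nucleus, and Nop10 (-0.95, SE 0.38), a part of the particle that modifies ribosomal RNA. Mrto4, another assembly factor, lay at -1.47 (SE 0.78) and at -0.11 without sgRosa replicate 4, which had 82.7 CPM against 8.86 to 14.3 CPM elsewhere.

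The 16 genes of the mTOR pathway, which acts on TOP messages, had a median of 0.08 with 5 below 0, or 0.15 without sgRosa replicate 4. None passed at an unadjusted p under 0.05 in edgeR (0 in the adjusted test). Rps6kb2, a ribosomal protein S6 kinase, lay at -0.88 (SE 0.75) and at -0.01 without sgRosa replicate 4. Rheb, the activator of mTOR, lay at 0.59 (SE 0.67), or 0.24 without that library, and Eif4ebp2, a repressor of initiation, at -0.28 (SE 0.35). These lists were written with earlier results of these data known, and their medians describe them.

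**Figure D5:**
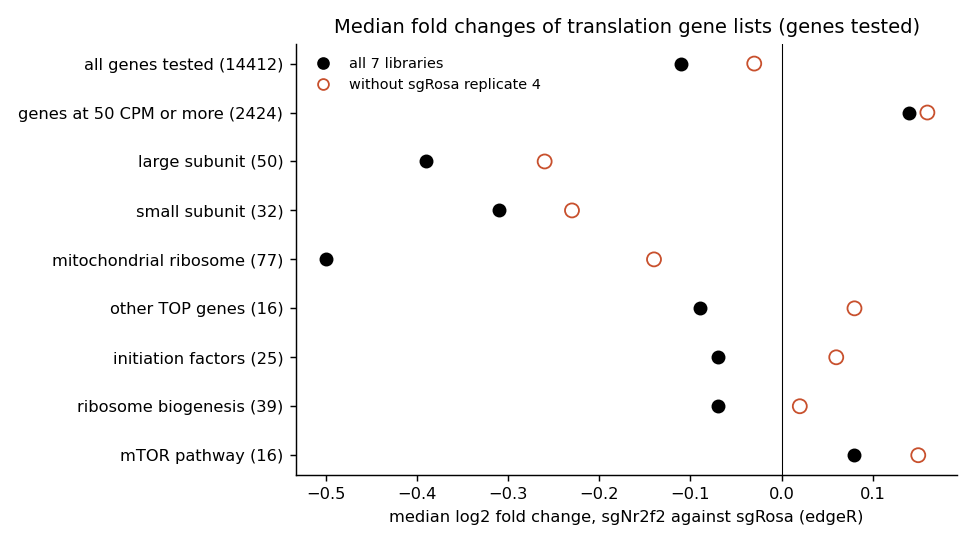
Median log2 fold change of sgNr2f2 against sgRosa (x axis) of gene lists, with the number of genes tested in brackets, over all 7 libraries (filled) and without sgRosa replicate 4 (open). The large and small subunit lie at -0.39 and -0.31, or -0.26 and -0.23 without that library, below all genes at -0.11 and -0.03. The mitochondrial ribosome moves from -0.50 to -0.14.

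Some cell type marker lists also lay apart from the median of all genes (-0.11). The neuron list had a median of -0.67 with 10 of 12 below 0, or -0.25 without sgRosa replicate 4. The oligodendrocyte list had a median of 0.51 with 10 of 11 above 0, or 0.18 without that library. The erythroid list lay at -2.40 with 6 of 6 below 0, or -0.74 without it. The pericyte and smooth muscle list lay at -1.25 with 6 of 6 below 0, or -1.06 without it, and the astrocyte list at -0.66 with 5 of 8 below 0, or -0.57. Lists for oligodendrocyte precursors, microglia, endothelium and choroid plexus had medians from -0.15 to 0. Without sgRosa replicate 4 these were -0.11, 0.02, 0.30 and -0.39 in that order. Every nucleated cell type makes ribosomal protein messages, so each cell type in a library adds to these levels. The part of cell type makeup in the ribosomal fold changes was not tested.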

How the data were processed

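RNA-seq libraries from amygdala cells were measured in 4 sgRosa and 3 sgNr2f2 samples. The deposited values were raw counts by gene symbol, held alike in a table of all libraries and in single-library files. Per the submitters' processing notes, the tools included STAR 2.7.5c and featureCounts 2.0.1, with reads handled by fastp 0.23.2 and checked by FastQC 0.11.9 and MultiQC 1.11. The same notes list edgeR 3.42.4 and the build mm10. Annotation, strand setting and treatment of multi-mapping reads were not given in the sources used. Library totals ran from 6266897 to 20928677 counts.

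From the counts, edgeR 4.0.16 in R 4.3.3 (TMM factors, its low-count filter, quasi-likelihood F test, Benjamini-Hochberg adjustment with threshold 0.05, group as the only term) was fitted over 14412 genes, and the ribosomal rows were read from that fit. The fit was tested on simulated data. A gene lay lower or higher by the sign of its log2 fold change. CPM used TMM-scaled sizes, and log2 CPM a prior count of 2. Lengths and G and C content came from GENCODE M21 on GRCm38, taking the shortest coding transcript with the gene's main coding length. Promoter sequences came from RefSeq GRCm38.p6. Mitochondrial genes were those RefSeq places on chromosome MT. Alternatives were other scalings, no filter, DESeq2 1.42.0, limma-voom (limma 3.58.1), a replicate block and leaving out each library.

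The ribosomal genes and all lists were chosen with earlier results of these data known. Named genes are the 4 highest per length, the 6 of smallest p and the 2 furthest to the higher side in each subunit, paralogs with their parents, stalk proteins, proteins outside the symbol rule, members below 1 CPM, Nr2f2 and the 3 genes of smallest p in each list. Others, such as Rps20, are named after values were seen. A few genes taken by the rule are not reported here.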

Additional observations from a re-analysis of the deposited data

Results flagged for a closer look

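In 82 members and 3 library measures, the group of 4 sgRosa libraries was searched for a library far from the other 3 (Dixon's test at its 95% critical value). Chance gives about 1 in 20 groups. It singled out 6 of the 82 members (7.32%), beside 18.6% of all genes, and 1 library measure. In sgRosa replicate 4, Rpl10a was far above at 80.4 CPM, Rps4l far above at 39.0 CPM and Rps27l far below at 19.1 CPM. The ratio of large to small subunit counts was also far above in that library, at 2.48. In sgRosa replicate 1, Rpl13 was far below at 186.4 CPM, Rpl36 at 37.2 CPM and Rps20 at 57.2 CPM.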

How the results depend on the processing

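The count of members past edgeR's adjusted threshold was 0 in each direction under the other scalings, without the low-count filter, under DESeq2, limma-voom and the replicate block, and without any 1 library. It became 6 lower under DESeq2 with sgRosa replicate 4 left out, where 0.824% of all genes passed as lower. That setting was added after the data were seen, and edgeR and limma-voom on the same 6 libraries passed 0 members. With 1 library left out, the median log2 fold change ran from -0.54 to -0.22 over all members, from -0.58 to -0.24 in the large subunit, from -0.52 to -0.18 in the small subunit and from -1.21 to -0.86 for the shortest class. The difference in share of counts ran from -0.415 to -0.189 percent of counts, and the log2 ratio of large to small subunit counts from -0.20 (without sgRosa replicate 2 or 3) to 0.08 (without sgRosa replicate 4). Short members per 100 counts of long ones differed by -8.12 to -4.60.

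Of 61 genes named with a fold change, 43 kept their direction under every single-choice setting that gave them a value (13 settings, or 12 for Rpl32l) and 18 turned at least once, and none passed the threshold there. The cause was not tested. With library totals, Rpl13 lay at -0.19, Rps2 at -0.05, Rpl22 at -0.09, Rpl3 at -0.05, Rplp0 at -0.14 and Rps3a1 at -0.12. In limma-voom, Rpl13a lay at 0.002, Rpl4 at 0.14, Rack1 at 0.26, Rpl22 at -0.02, Rpl7l1 at 0.00059, Rps3a1 at -0.03, Rps4x at 0.07, Rheb at -0.02 and Rpl14-ps1 at 0.16. With 1 library left out, Rack1 ran from -0.50 to 0.29, Rpl13 from -0.22 to 0.28, Rpl13a from -0.57 to 0.02, Rpl14-ps1 from -0.70 to 0.26, Rpl22 from -0.05 to 0.32, Rpl3 from -0.18 to 0.37, Rpl34-ps1 from -0.81 to 0.29, Rpl4 from -0.71 to 0.18, Rpl7l1 from -0.75 to 0.01, Rplp0 from -0.13 to 0.29, Rps15a-ps6 from -1.05 to 0.14, Rps2 from -0.08 to 0.36, Rps3 from -0.10 to 0.61, Rps3a1 from -0.24 to 0.33, Rps4l from -0.97 to 0.05 and Rps4x from -0.53 to 0.06.

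Replicate numbers are shared by the groups, but the labels give them no meaning, and deviations of same-numbered libraries correlated at -0.201, -0.262 and 0.0897, so the numbers were not taken as pairs. In the fit with the replicate block, 0 members passed and the count lower at an unadjusted p under 0.05 went from 4 to 11, beside 2.82 and 2.89% of all genes. The medians were -0.23 over all members, -0.24 and -0.22 in the large and small subunit and -1.16 in the shortest class. The block put Rpl13a at 0.06, Rpl4 at 0.18, Rps3 at -0.0059, Rack1 at 0.30, Rpl10 at 0.02, Rpl3 at -0.03, Rps3a1 at -0.03, Rps4x at 0.04, Rps15a-ps6 at 0.05 and Rpl14-ps1 at 0.30.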
